A study of Mus musculus with 4 samples.

Results

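The genes described here are the ATP-binding cassette (ABC) transporter genes measured in mouse liver, apart from 8 named genes that move sterols, bile acids, bile lipids and bile conjugates. They were taken as every probe set whose gene symbol in the platform annotation is Abc followed by a subfamily letter from a to g and a number, leaving out Abca1, Abcg1, Abcg5, Abcg8, Abcb11, Abcb4, Abcc2 and Abcc3. This gave 28 of the 12393 genes named on the arrays, read by 55 of 22626 probe sets. They comprise 6 genes of subfamily A, 6 of B, 6 of C, 3 of D, 1 of E, 3 of F and 3 of G. Other mouse genes with such symbols in the RefSeq gene table, such as Abca5, Abca6, Abca9 and Abcc4, were not analysed here.

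Each array held liver RNA of 1 of 4 male ABCA1-transgenic mice of 5 to 6 months, of strain C57BL/6 and fed the NIH36 diet. The labels differ on a trait that all 4 mice share: the series title gives an LDL receptor -/- background, the sample descriptions give LDL receptor +/-, and the design text calls the controls wild-type. The labels name neither the promoter nor the species of the transgene, and no control array was analysed here, so every comparison below is between the 4 transgenic livers, numbered mouse 1 to mouse 4 as their titles number the replicates. The labels call the animals biological replicates but give no litter or handling day, so the spread between these arrays may be partly technical. No p-value below separates animal from array.

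ABC proteins bind and hydrolyse ATP at a conserved nucleotide-binding domain. In most of them this drives the movement of a lipid, peptide, metal complex, drug or conjugate across a membrane. Subfamily A holds lipid transporters, B holds drug pumps and mitochondrial and lysosomal transporters, C holds exporters of conjugates and the sulfonylurea receptors of potassium channels, D holds transporters of peroxisomes and lysosomes, and G holds sterol and drug exporters. Subfamilies E and F have no membrane-spanning part and act on ribosomes and translation.

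Hepatocyte genes such as Alb were bright on every array, and 3 features of the arrays bear on what follows. Median signals were 278, 302, 305 and 267 in mice 1 to 4, and Pearson's r between pairs of arrays ran from 0.950 to 0.959 across probe sets. Mouse 1 had the highest 18S ribosomal RNA signal, at 9.95 log2 against 8.75 to 8.98 in the others, and the smallest 3-prime minus 5-prime difference of the Gapdh control probe sets, at 1.67 log2 against 1.94 to 2.03. The summed signal of 7 measured of 7 skeletal muscle markers was 488 in mouse 1 against 5590 to 8198 elsewhere, that of 5 measured of 6 exocrine pancreas markers was 3434 in mouse 2 against 733 to 1258 elsewhere, and that of 5 measured of 6 hepatocyte markers ran from 241537 to 278678. The lowest deposited signal was 0.1, so a marker signal above 0 does not show that its cell type was present. In whole tissue, fewer cells of a type and less RNA per cell cannot be told apart.

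Most of these transporter genes were close between the 4 livers. Values are log2 signal intensities, a gene with several probe sets is represented by the probe set with the highest mean, and levels of different genes are not ranked because probe sets differ in binding. Over the 28 genes the SD between mice had a median of 0.27 log2, against 0.26 over all 12393 genes, and the median difference between highest and lowest mouse was 0.60 log2 against 0.59. The 2 mice at the ends differed by at least 2-fold in 7 of 28 members, where 27% of all genes did. limma's test of excess spread, which sets the variance between mice against the variance usual at the same signal level, called 0 of 28 members and 0% of all probe sets after Benjamini-Hochberg adjustment. At an unadjusted p under 0.05 there was 1 member, Abca2, against a background of 3.7% of genes. Adjusted p ran from 0.977 to 1 over the members. With 4 arrays the 95% interval of an SD reaches from 0.57 to 3.73 times the measured value, so these tests leave room for sizeable differences. On simulated data the test of excess spread also missed nearly all excesses of the sizes seen among the members.

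Low signal went with wide spread. A mean under 6.3 log2, the 25th percentile of all probe sets, was called a low signal, and 5 members fell there: Abca4, Abcb1b, Abcb9, Abcc10 and Abcd2. They account for 4 of the 7 members with a 2-fold difference, all except Abcb1b. For scale, the 27 control probe sets for Bacillus subtilis transcripts averaged 1.23 to 7.04 log2, with a median of 4.47, and the labels do not say whether these transcripts were added to the samples. The 5 genes and Abcc8, at 7.02 log2, lay below the brightest of these controls, and Abcc10 and Abcd2 lay below their median. Of the 23 members that were not low, 3 differed by at least 2-fold (13.0%), against 15.2% of all genes that were not low. These 3 were Abca2, Abca7 and Abcc1. In each of them the lowest mouse lay under the brightest Bacillus control of its own array, which was 7.22, 7.37, 6.98 and 6.78 log2 in mice 1 to 4. The same held for the lowest mouse of 9 members in all, against 32.8% of all genes. A 2-fold difference with the lowest mouse above that control was found in 0 members, against 4.24% of all genes.

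**Figure D1:**
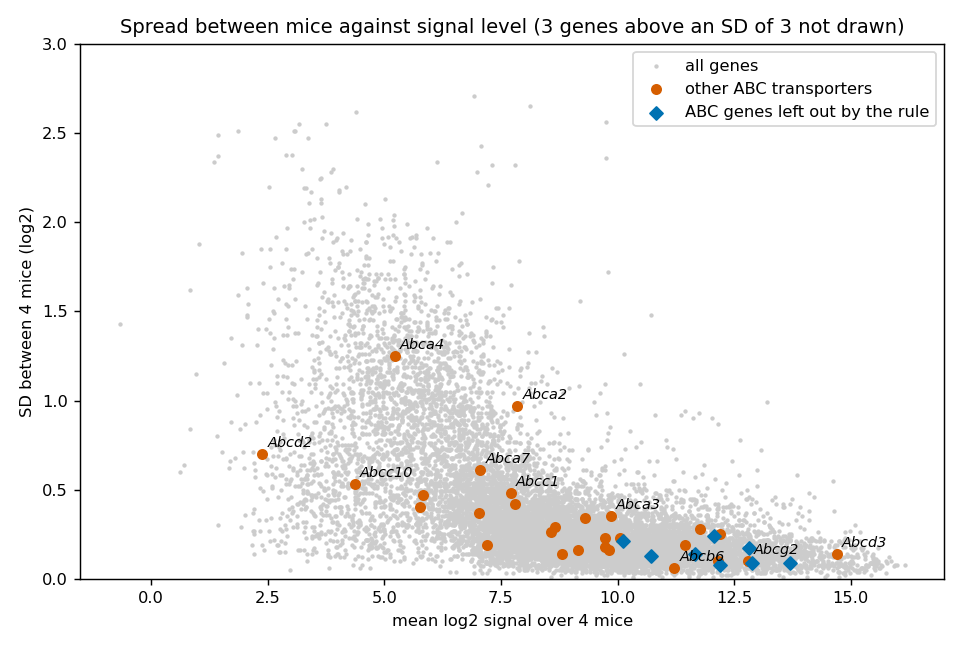
Standard deviation between the 4 mice (log2, vertical axis) against mean log2 signal (horizontal axis) for all genes (grey), the 28 ABC transporter genes described here (orange) and the 8 left out by the rule (blue diamonds); 3 genes with an SD above 3 are not drawn. The orange points follow the grey cloud, with Abca2 (SD 0.97) towards its upper edge and Abcb6 (SD 0.06) towards its lower edge.

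**Figure D2:**
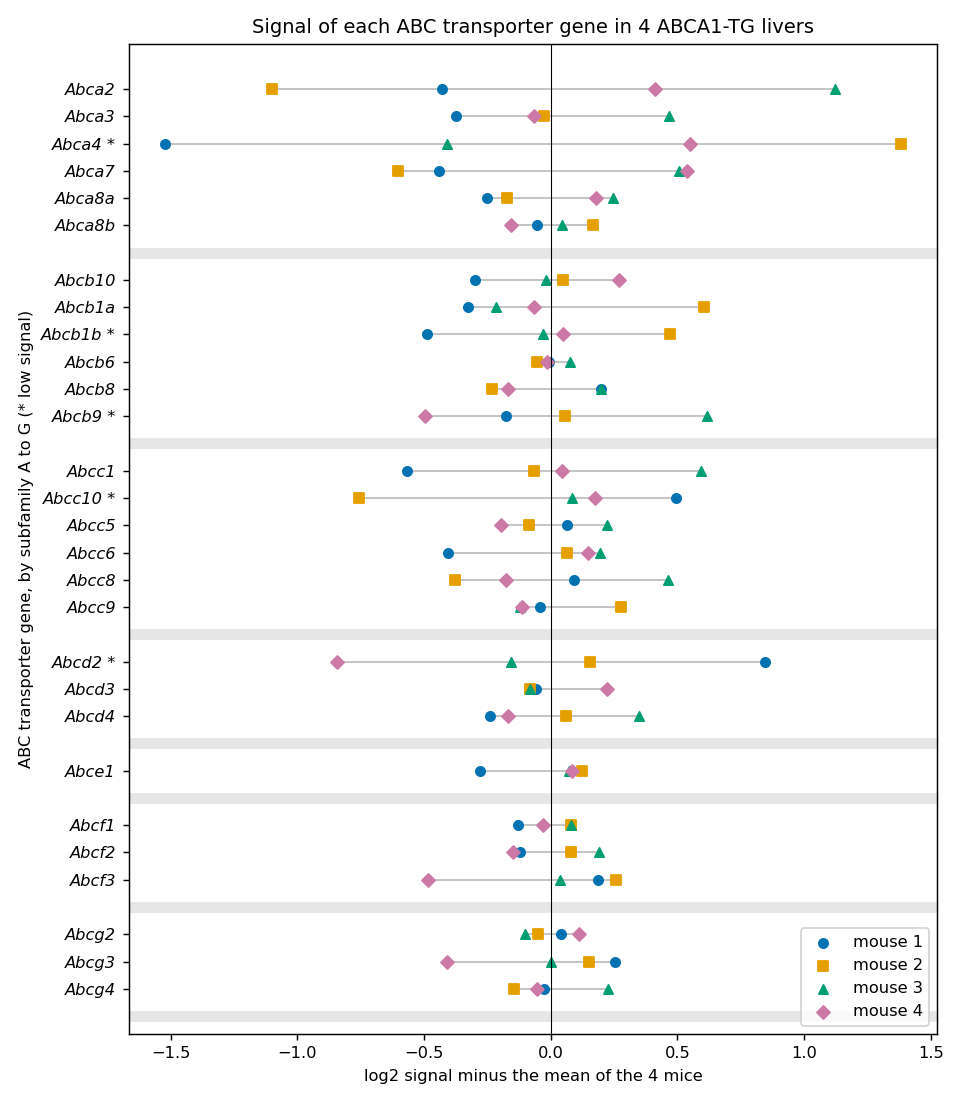
Log2 signal of each of the 28 genes in each mouse minus the mean of the 4 mice (horizontal axis), with genes grouped by subfamily A to G from top to bottom; each symbol is 1 mouse, the grey line joins the lowest and highest mouse, and * marks a low signal. Abca2 and Abca4 spread the widest, and Abcb6, Abcg2 and Abcf1 lie within 0.22 log2.

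Subfamily A held Abca2, the widest gene outside the low signals, and some of the steadier ones. Abca2, a lysosomal lipid transporter best known from brain, measured 7.42, 6.75, 8.97 and 8.26 log2 in mice 1 to 4. Mice 3 and 4 were high and mice 1 and 2 low, and the highest and lowest differed by 4.67-fold. The value of mouse 2 lay under the brightest Bacillus control of its array, and against that control, at 7.37 log2, mouse 3 was 3.02-fold higher. The SD of 0.97 was 2.99 times the usual SD at that level, with an unadjusted p of 0.0205 and an adjusted p of 0.977 (limma). Abca7, a phospholipid exporter related to Abca1, gave 6.62, 6.46, 7.57 and 7.60 log2 in mice 1 to 4, so the same 2 mice were high, and the ends differed by 2.21-fold (adjusted p = 0.977, limma). Mice 1 and 2 both lay under the brightest control of their arrays, and against the control of mouse 2 the highest Abca7 value was 1.17-fold higher. Both genes have 1 probe set, so no second reading of the same transcript was at hand.

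Abca8a and Abca8b are neighbouring genes on chromosome 11 (GRCm38.p6) at 110025634 to 110097580 and 109932206 to 109996274, 29.4 kb apart. Abca8a measured 11.94, 12.02, 12.44 and 12.37 log2 in mice 1 to 4, with mice 3 and 4 again above mice 1 and 2, in a range of 1.41-fold. The 6 measured of 7 macrophage markers summed to 23684, 24119, 30818 and 28928 in mice 1 to 4, also higher in mice 3 and 4. The 7 measured of 7 mural and stellate cell markers summed to 3772, 4081, 4517 and 4331, again higher there. Single markers differed: in mice 3 and 4, 6 and 4 of the 6 macrophage markers lay above the mean of the other mice. Of the 7 mural and stellate markers 6 and 4 did, against 59.8% and 42.9% of all genes. Mice 1 to 4 were highest for 2, 2, 1 and 2 of these 7, against 17.4%, 29.8%, 33.5% and 19.3% of all genes. Des, at 8.28, 8.21, 7.70 and 7.32 log2, was lower in mice 3 and 4, and Lrat, at 6.90, 7.03, 7.63 and 7.66 log2, was higher. The part of these cell types in the values of Abca2, Abca7 and Abca8a was not tested. Abca8b measured 8.75, 8.97, 8.85 and 8.65 log2, where mouse 2 was highest and mouse 4 lowest, 1.25-fold apart. The neighbours therefore did not share an order of mice. Abca3, the phospholipid transporter of lung surfactant, gave 9.48, 9.83, 10.32 and 9.79 log2 on its brightest probe set, with mouse 1 lowest. Abca4, the retinoid-lipid transporter of photoreceptors, had a low signal of 3.70, 6.60, 4.81 and 5.77 log2, and its 7.47-fold range lies at levels that the Bacillus controls also reach. Over the 6 genes of the subfamily, 0 lay above the mean of the other mice in mouse 1 and 5 did in mouse 3, against 42.8% and 59.8% of all genes.

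The drug pump P-glycoprotein is encoded in mouse by Abcb1a and Abcb1b, which export a broad range of hydrophobic compounds, in liver into bile. On chromosome 5 (GRCm38.p6) they lie at 8567091 to 8748575 and 8798147 to 8866314, 49.6 kb apart, with the phospholipid exporter gene Abcb4 following 27.3 kb further on. Abcb1a measured 7.48, 8.41, 7.59 and 7.74 log2 in mice 1 to 4, with mouse 2 highest by 0.67 and an SD of 0.42 that was 0.13 without mouse 2. Abcb1b measured 5.27, 6.23, 5.73 and 5.81 log2, a low signal in which mouse 2 was also highest and mouse 1 also lowest. With arrays shifted to the same median Abcb1a was lowest in mouse 3, at 7.50 log2 against 7.53 in mouse 1. Neither passed limma's test (adjusted p of 0.977 and 0.995). A second Abcb1a probe set did not share the pattern, at 6.35, 5.80, 6.70 and 6.37 log2, with mouse 2 lowest. Mouse 2 was also the mouse with the most pancreas marker signal, whose part in the Abcb1a value was not tested.

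The promoters of these neighbours are shown because their brightest probe sets had the same highest and, as deposited, the same lowest mouse, together with those of Abca2, the widest member outside the low signals, and Abcb6, the steadiest as deposited. Each runs 5′ to 3′ on the gene's strand, from 250 bases before to 50 after the RefSeq start on GRCm38.p6. Capitals mark 3 motifs on either strand, the TATA box with letters TATAAA, the CAAT box with letters CCAAT and the GC box with letters GGGCGG, and where matches touch or overlap the capitals run together. Coordinates are chr5:8566841-8567140 (+) for Abcb1a, chr5:8797897-8798196 (+) for Abcb1b, chr2:25428349-25428648 (+) for Abca2 and chr1:75180343-75180642 (-) for Abcb6.
Abcb1a: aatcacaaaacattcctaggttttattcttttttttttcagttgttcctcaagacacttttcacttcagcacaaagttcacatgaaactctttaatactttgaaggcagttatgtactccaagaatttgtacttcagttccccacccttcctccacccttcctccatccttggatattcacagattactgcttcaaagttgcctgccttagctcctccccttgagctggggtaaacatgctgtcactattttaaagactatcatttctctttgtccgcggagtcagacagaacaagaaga
Abcb1b: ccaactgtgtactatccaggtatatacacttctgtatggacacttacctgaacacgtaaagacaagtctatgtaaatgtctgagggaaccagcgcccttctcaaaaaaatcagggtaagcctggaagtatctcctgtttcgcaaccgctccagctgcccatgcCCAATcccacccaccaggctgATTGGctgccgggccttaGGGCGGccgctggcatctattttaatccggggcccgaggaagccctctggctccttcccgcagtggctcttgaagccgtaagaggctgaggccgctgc
Abca2: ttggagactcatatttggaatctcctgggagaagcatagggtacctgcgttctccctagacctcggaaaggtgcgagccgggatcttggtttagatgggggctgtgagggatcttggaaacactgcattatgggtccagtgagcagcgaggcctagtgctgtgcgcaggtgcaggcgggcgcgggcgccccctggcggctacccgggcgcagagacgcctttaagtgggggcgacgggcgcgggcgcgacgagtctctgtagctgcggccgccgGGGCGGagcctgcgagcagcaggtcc
Abcb6: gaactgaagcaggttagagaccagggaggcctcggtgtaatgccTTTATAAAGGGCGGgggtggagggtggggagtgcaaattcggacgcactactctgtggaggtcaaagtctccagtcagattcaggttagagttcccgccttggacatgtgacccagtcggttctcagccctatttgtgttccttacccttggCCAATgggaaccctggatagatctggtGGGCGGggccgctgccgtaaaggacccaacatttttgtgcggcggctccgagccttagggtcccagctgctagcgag

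The Abcb1a window held none of the 3 motifs and 2 CG dinucleotides. The Abcb1b window held the CAAT box at -87 and, on the opposite strand, at -66, the GC box at -48, and 12 CG dinucleotides, where positions count bases from the start and name the leftmost base of the match. The Abca2 window held 26 CG dinucleotides and 1 match, the GC box at 25 bases after the start. The Abcb6 window held the GC box at -198 and -27, the CAAT box at -54, and the TATA box at -204 overlapping a match on the opposite strand at -206. Promoters were found in the RefSeq table for 21 of the 28 members, and the GC box occurred in 13 of these 21, the CAAT box in 5 and the TATA box in 3. Among all 32851 promoter windows of the same length in the table, 35.7% held the GC box, 37.4% the CAAT box and 13.6% the TATA box. The members, counted with 1 window each, held a median of 19 CG dinucleotides, against 7 over all windows. The sets thus differ in base composition, and their shares were not tested against each other. These are matches of letters and not measured binding.

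Among the mitochondrial and lysosomal members of subfamily B, Abcb6 varied least. Abcb6, a porphyrin transporter, measured 11.21, 11.16, 11.29 and 11.20 log2 in mice 1 to 4, a range of 1.10-fold, and its SD of 0.06 was the smallest of the 28. With arrays shifted to the same median its SD was 0.09, and that of Abcf1, at 0.06, was smaller. Abcb10, an inner mitochondrial membrane transporter needed for heme synthesis in red cell precursors, gave 9.43, 9.78, 9.71 and 10.00 log2, with mouse 1 lowest and mouse 4 highest, 1.48-fold apart. Abcb8, a mitochondrial transporter linked to iron export, gave 10.26, 9.83, 10.26 and 9.89 log2, with mice 1 and 3 above mice 2 and 4. Abcb9, a lysosomal peptide transporter, had a low signal of 5.64, 5.87, 6.43 and 5.32 log2, under the brightest control in every mouse, and its SD was 0.656 times the usual one at that level.

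Genes of heme synthesis and iron-sulfur assembly, in which these transporters take part, were also without a call. Of 14 listed genes 12 were measured, 0 passed either test after adjustment, and their median SD was 0.17 log2. The widest by fold was Slc25a37, the mitochondrial iron importer mitoferrin, at 8.76, 9.87, 9.77 and 9.27 log2 in mice 1 to 4. Alas1, the rate-limiting enzyme of heme synthesis in liver, measured 13.11, 14.13, 13.97 and 13.79 log2. Both had their lowest value in mouse 1, as did 5 of the 12 (28.9% of all genes were lowest there).

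In subfamily C the hepatocyte transporter Abcc6, whose loss causes soft tissue calcification in pseudoxanthoma elasticum, was lowest in mouse 1. It measured 11.35, 11.82, 11.95 and 11.90 log2 in mice 1 to 4. Mouse 1 lay 0.48 below the next mouse, and the other 3 lay close together: the SD of 0.28 was 0.06 without mouse 1 (adjusted p = 0.977 with all mice, limma). With arrays shifted to the same median these SDs were 0.26 and 0.13. Mouse 1 is also the array with the highest 18S signal and the smallest Gapdh 3-prime minus 5-prime difference, and their part was not tested. Abcc1, which exports leukotriene C4 and glutathione conjugates, measured 7.14, 7.64, 8.30 and 7.75 log2, lowest in mouse 1 and highest in mouse 3, 2.23-fold apart. The value of mouse 1 lay under the brightest control of its array, at 7.22 log2, over which mouse 3 was 2.12-fold higher. Its second probe set gave 6.87, 6.78, 7.31 and 6.70 log2, highest in the same mouse but lowest in mouse 4.

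Abcc5, an exporter of cyclic nucleotides and other organic anions, was read by 7 probe sets, the most of any member. The brightest measured 9.79, 9.64, 9.95 and 9.53 log2, a range of 1.34-fold. Abcc10, a drug exporter, had a low signal of 4.86, 3.61, 4.45 and 4.54 log2. The sulfonylurea receptors Abcc8 and Abcc9 are regulatory subunits of ATP-sensitive potassium channels, and form them with Kcnj11 and Kcnj8. Abcc9, found in vascular and heart muscle, measured 7.17, 7.49, 7.09 and 7.10 log2, with mouse 2 highest and mouse 3 lowest. Kcnj8 gave 6.84, 7.92, 7.83 and 7.41 log2, with mouse 2 also highest but mouse 1 lowest (29.8% of all genes were highest in mouse 2). Abcc8, the receptor of pancreatic islet cells, measured 7.11, 6.64, 7.48 and 6.84 log2, with mouse 2 lowest, while Kcnj11 was a low signal at 6.25, 3.47, 3.51 and 5.89 log2. The summed islet markers, 3 measured of 4 and 2 of them low, were 176, 359, 336 and 138 in mice 1 to 4. These signals and those of Abcc8 lie at levels that the Bacillus controls also reach, and the part of islet cells in Abcc8 was not tested. Abcc9 was near them too: its value in mouse 1 lay under the brightest control of that array, at 7.22 log2.

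Peroxisomal transport was represented by Abcd3, the protein PMP70, which carries fatty acids and bile acid precursors into peroxisomes. It measured 14.64, 14.62, 14.62 and 14.92 log2 in mice 1 to 4. As deposited, the first 3 mice were almost identical and mouse 4 was higher, 1.23-fold above the lowest, and the SD of 0.14 was 0.01 without mouse 4 (adjusted p = 0.977 with all mice, limma). With arrays shifted to the same median the values were 14.69, 14.55, 14.54 and 15.02 log2, and the SD of 0.23 was 0.09 without mouse 4. Abcd2, a peroxisomal carrier of very long chain fatty acids, had a low signal of 3.23, 2.54, 2.23 and 1.54 log2, within the range of the Bacillus controls. Abcd4, a lysosomal vitamin B12 transporter, measured 8.34, 8.64, 8.93 and 8.41 log2, 1.5-fold between mice 3 and 1. Of 15 listed genes of peroxisome assembly and oxidation 14 were measured and 0 passed either test, with a median SD of 0.13 log2. Ehhadh, the bifunctional oxidation enzyme, gave 13.40, 12.40, 12.64 and 13.09 log2, with mouse 1 highest. Of the 14 genes 4, 1, 4 and 5 were highest in mice 1 to 4, against 17.4%, 29.8%, 33.5% and 19.3% of all genes.

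Members without a membrane part ranged from 1.16-fold to 1.67-fold between mice on their brightest probe sets. Abce1, which splits ribosomes for reuse after translation ends, measured 11.17, 11.57, 11.52 and 11.53 log2 in mice 1 to 4. Mouse 1 lay 0.35 below the next, and the SD of 0.19 was 0.02 without mouse 1. With arrays shifted to the same median the values were 11.22, 11.50, 11.44 and 11.63 log2, and the SD of 0.17 was 0.10 without mouse 1. Abcf1, a translation initiation factor, measured 12.02, 12.23, 12.23 and 12.12 log2, a range of 1.16-fold. Abcf2 gave 9.70, 9.90, 10.01 and 9.67 log2. Abcf3 gave 9.49, 9.56, 9.34 and 8.82 log2, with mouse 4 lowest by 0.52 and 1.67-fold between the ends. Of 11 listed symbols of ribosome recycling, termination and initiation 7 were measured, 0 passed either test, and their median SD was 0.13 log2. The widest of them was Pelo, a ribosome rescue factor, at 9.02, 8.36, 8.94 and 8.72 log2.

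Subfamily G held Abcg2, the breast cancer resistance protein, which exports drugs and urate across the canalicular membrane. It measured 12.84, 12.75, 12.70 and 12.91 log2 in mice 1 to 4, and no mouse stood apart in a range of 1.16-fold. Its SD of 0.10 was 0.19 with arrays shifted to the same median. Abcg3, a rodent gene, gave 8.91, 8.81, 8.66 and 8.25 log2 on its brightest probe set, with mouse 4 lowest by 0.41. A second Abcg3 probe set gave 6.45, 6.63, 7.55 and 6.60 log2, with mouse 1 lowest and mouse 3 highest. Abcg4, a sterol exporter best known from brain, gave 9.13, 9.01, 9.38 and 9.10 log2. Abcg2 and the P-glycoprotein genes are also expressed by endothelium, whose 6 measured of 6 markers summed to 5378, 5454, 5750 and 5512 in mice 1 to 4.

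For 14 members with at least 2 probe sets, a second test asked whether the probe sets of a gene show the same difference between mice. The part common to a gene's probe sets was set against their residual variance, moderated with limma, in an F-test adjusted over 4956 genes. Its p-values therefore rest on how far probe sets of the same arrays disagree, and not on replicate animals. It called 0 of the 14 members, against 0.343% of genes, with adjusted p from 0.528 for Abce1 to 0.989 for Abcb1a. On simulated data this test missed most of the smaller shared differences, and those of most of the 14 members were of such sizes. At an unadjusted p under 0.05 limma's moderated F gave 1 member, Abce1, against 8.92% of genes. The second Abce1 probe set measured 9.83, 11.39, 11.16 and 10.25 log2 in mice 1 to 4, so mouse 1 was lowest and mouse 2 highest on both, but mouse 4 lay with mice 2 and 3 on the first and nearer mouse 1 on the second. All probe sets shared the highest mouse in 5 of the 14 genes and the lowest mouse in 4 of 14, against 23.9% and 21.7% of genes.

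Probe sets of a gene could also disagree. Abcf1 was read by 6 probe sets: a dim one was lowest in mouse 3, at 6.76, 7.33, 4.13 and 6.37 log2, while another gave its highest value there, at 7.39, 8.82, 9.34 and 8.58 log2. Other genes agreed at least in part. The second probe set of Abcf2 gave 4.07, 1.68, 4.57 and 1.32 log2, highest in mouse 3 and lowest in mouse 4 like the first. That of Abcd4 gave 5.21, 7.50, 7.27 and 7.61 log2, lowest in mouse 1 like the first but highest in mouse 4. For Abcb8 both probe sets had mouse 2 lowest, with the dim one at 5.83, 4.91, 7.71 and 6.54 log2. Over the 55 probe sets, 4 had an unadjusted p under 0.05 in limma's test of excess spread (7.27%), against 3.71% of all probe sets, and 0 passed after adjustment. They belonged to Abca2, Abcc5, Abce1 and Abcf1, and the lowest was the second Abce1 probe set (adjusted p = 0.977, limma).

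**Figure D3:**
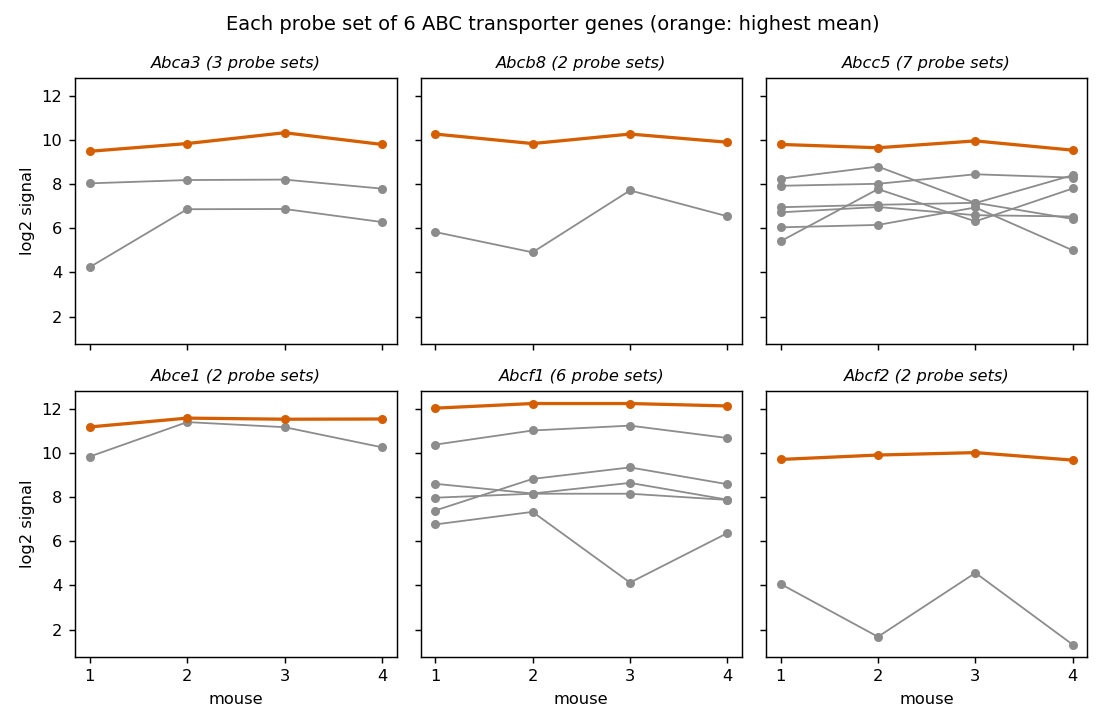
Log2 signal (vertical axis) in mice 1 to 4 (horizontal axis) for every probe set of Abca3, Abcb8, Abcc5, Abce1, Abcf1 and Abcf2; a line joins the values of 1 probe set and has no order in time, and orange is the probe set with the highest mean. The orange lines span 0.21 log2 for Abcf1 to 0.83 for Abca3. Dimmer probe sets of Abcf1 and of Abcc5 differ in their highest and lowest mouse, whereas both of Abcf2 are highest in mouse 3 and lowest in mouse 4.

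Across the 28 genes as deposited, mouse 3 was most often highest and mouse 1 most often lowest. Mouse 3 held the highest value of 13 members (46.4%), against 33.5% of all genes, and mouse 1 the lowest of 11 (39.3%), against 28.9% of all genes. Mice 1, 2 and 4 were highest for 4, 7 and 4 members, against 17.4%, 29.8% and 19.3% of all genes, and mice 2, 3 and 4 lowest for 8, 2 and 7, against 20%, 20.4% and 30.7% of all genes. Members above the mean of the other mice numbered 9, 15, 20 and 12 of 28 in mice 1 to 4, against 42.8%, 57.9%, 59.8% and 42.9% of all genes. With all arrays shifted to the same median these numbers were 11, 11, 14 and 17, against 52.1%, 46.2%, 47.2% and 59.4% of all genes. As shares of the members they were 39.3%, 39.3%, 50% and 60.7%, so mouse 4 had the most, as it did over all genes. With all arrays shifted to the same median, mouse 3 was highest for 9 members (32.1% against 23.1% of all genes), as was mouse 4 for 9 (32.1% against 33.1%), and mouse 1 was lowest for 10 (35.7% against 23.0%). Quantile normalization instead left mouse 3 highest for 13 (46.4% against 28.2%) and mouse 1 lowest for 11 (39.3% against 25.6%). Members above the mean of the other mice then numbered 11, 13, 16 and 14, against 48.1%, 53%, 52.8% and 50.4% of all genes. As deposited, the 13 highest in mouse 3 were Abca2, Abca3, Abca8a, Abcb6, Abcb9, Abcc1, Abcc5, Abcc6, Abcc8, Abcd4, Abcf1, Abcf2 and Abcg4. The 11 lowest in mouse 1 as deposited were Abca3, Abca4, Abca8a, Abcb10, Abcb1a, Abcb1b, Abcc1, Abcc6, Abcd4, Abce1 and Abcf1. The median member lay 0.17 log2 below the mean of the other 3 mice in mouse 1 and 0.11 above it in mouse 3, where all genes gave -0.05 and 0.09. Over the 23 members that were not low these were -0.16 and 0.26, against -0.05 and 0.08 for all such genes. After the median shift the values for all 28 were -0.10 and 0.00, and the values of mice 2 and 4, 0.07 and -0.06, changed sign. Quantile normalization gave -0.13 in mouse 1 and 0.12 in mouse 3, and mice 2 and 4 changed sign there too. No test was made over the list, and mouse 1 is the array whose 18S and Gapdh control values stood apart, whose part was not tested.

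**Figure D4:**
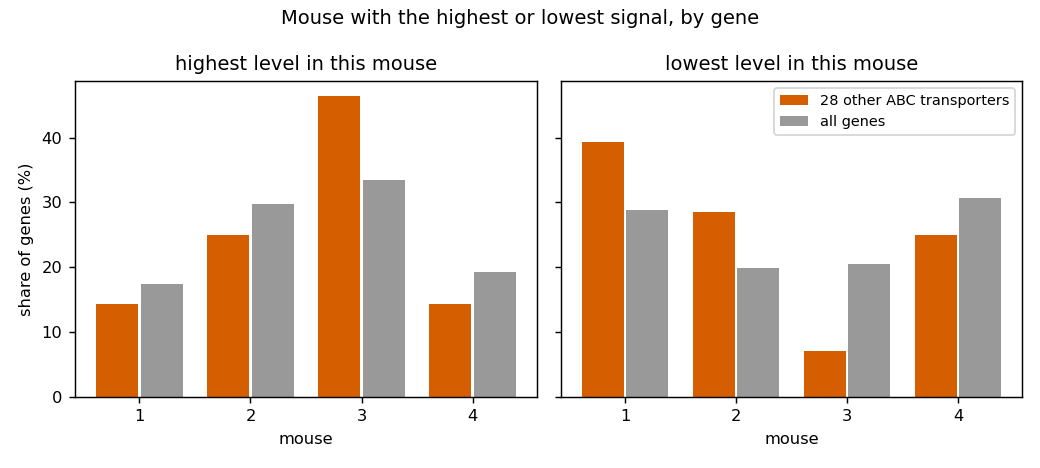
Share of genes (%, vertical axis) whose highest (left) or lowest (right) log2 signal fell in each mouse (horizontal axis), for the 28 ABC transporter genes (orange) and all 12393 genes (grey). Mouse 3 is highest for 46.4% of the transporters against 33.5% of all genes, and mouse 1 is lowest for 39.3% against 28.9%.

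Set beside the 28, the 8 ABC genes left out by the rule had a smaller median SD, 0.27 for the 28 and 0.13 for the 8, and the 8 also lay at higher signals, from 10.12 to 13.69 log2, where spread is smaller. Relative to the usual SD at their level the medians were 1.04 for the 28 and 0.749 for the 8, and this difference was not tested. None of the 8 had a 2-fold difference between mice. Abca1, the gene after which the transgenic mice are named, had an SD of 0.17 and a highest value of 13.00 log2 in mouse 4. Whether this signal includes transcripts of the transgene was not tested. Without control arrays, overexpression could not be tested either. Of the ABC genes under other symbols, the peptide transporter genes Tap1 and Tap2, which load MHC class I molecules, had SDs of 0.25 and 0.17. The chloride channel gene Cftr had a low signal of 1.89, 5.99, 6.07 and 5.71 log2 in mice 1 to 4. Each value lay under the brightest Bacillus control of its array. Cftr is expressed by bile duct cells, and the bile duct markers, 5 measured of 6 including Cftr and 2 of them low, summed to 255, 722, 699 and 538. All 3 of these genes were lowest in mouse 1 and 0 passed after adjustment (limma).

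Drug uptake carriers and the regulators of drug-handling genes gave no call either. Of 8 listed uptake and efflux carriers of the solute carrier family 6 were measured, and the widest, Slc22a7, an organic anion transporter, gave 12.40, 13.22, 13.36 and 12.85 log2 in mice 1 to 4 (adjusted p = 0.977, limma). Of the regulators 7 of 7 were measured, with a median SD of 0.22 log2. The widest was Nr1i3, the receptor CAR, at 11.17, 10.98, 10.56 and 11.26 log2, lowest in mouse 3. In both lists 0 genes passed either test, and over all lists of partner genes the count was 0 as well.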

How the data were processed

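The authors deposited 1 linear signal intensity per probe set and array, from 0.1 to 79882.6. RMA is named, without a version, per the submitters' processing notes, although the deposited values are linear and not log2. Trimmed by 2% at each end, the deposited arrays had means of 1000.4 to 1000.5, and the labels do not say how probes were summarised. Per the labels' protocols, RiboAmp amplification started from 2 ug of RNA per mouse. It primes at the poly(A) tail and favours 3-prime ends. Probe sets identified with _s_at or _x_at can bind several transcripts.

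Values were taken as log2 without a pseudocount or further scaling, and 64 control probe sets were left out. Of 22626 probe sets 20380 had 1 symbol in the platform annotation, 691 several and 1555 none, and RefSeq changed 0 symbols. All 4 arrays form 1 group. Excess spread was tested with limma 3.58.1 in R 4.3.3 (squeezeVar with a mean-level trend and robust prior, upper-tail F), and the shared difference with an F-test per gene with 2 or more probe sets, both adjusted by Benjamini-Hochberg with a threshold of 0.05. Both were tested on simulated data, where the first found most of the largest excesses only. The second found most of the larger differences and missed most of the smaller ones. The members, the lists and both tests were chosen with earlier results of these data known. Named are the 2 widest and the steadiest member of each subfamily, members past a test, a fixed list of members with known roles, and the widest gene of each partner list. Alas1, Tap1, Tap2, Kcnj8, Alb, Des, Lrat and the second and further probe sets were chosen after their values were seen. Alternatives were other scalings, low-signal treatments, priors, probe set choices and leaving out each mouse. The number of arrays limits the precision.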

Additional observations from a re-analysis of the deposited data

Results flagged for a closer look

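In 2 of the 28 genes 1 mouse lay far from the other 3, with a gap to the nearest mouse that took up most of the whole range. For Abcd3, the peroxisomal transporter PMP70, the gap was 0.924 of the range, with mouse 4 at 14.92 log2 and the others at 14.62 to 14.64. For Abce1, the ribosome recycling factor, it was 0.893 of the range, with mouse 1 at 11.17 log2 and the others at 11.52 to 11.57. Chance alone puts about 1 in 20 groups past the limit used, Dixon's 95% value for 4 samples, and 5.91% of all genes were past it here. Neither gap was past the limit under either other scaling: with arrays shifted to the same median the gaps were 0.676 of the range for Abcd3 and 0.529 for Abce1, and with quantile normalization 0.789 and 0.820. The differences are small, 1.23-fold between the ends for Abcd3 and 1.32-fold for Abce1, and neither passed limma's test of excess spread (adjusted p of 0.977 and 0.980). Mouse 1 had the highest 18S signal of the 4 arrays, whose part in the Abce1 value was not tested.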

How the results depend on the processing

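Under every alternative run, 0 members passed either limma test, and 0 genes of the partner lists passed the shared-difference test. Over all genes the shared-difference test called 17, against 55 with arrays shifted to the same median, 44 without probe sets under the 25th percentile, 2 without _s_at and _x_at probe sets, 1 with signals under 64 raised to 64, 0 with a prior without a trend, and 0 to 4 when 1 mouse was left out. Excess spread was called for 0 probe sets, and for 6 without those probe sets. The number of members with a 2-fold difference was 7, and 3 with signals under 64 raised to 64 or without those probe sets, and 5 to 6 when 1 mouse was left out. It was 10 with the mean over the probe sets of a gene. The median SD of members, 0.27, was 0.25 with quantile normalization, 0.22 with the floor of 64, 0.23 without those probe sets, 0.34 without _s_at and _x_at probe sets, 0.35 with means over probe sets, and 0.24 to 0.27 when 1 mouse was left out. The median member in mouse 3 was 0.26 without those probe sets, 0.26 without _s_at and _x_at probe sets and 0.24 with means over probe sets, in mouse 4 it was 0.08 with arrays shifted to the same median, and in mouse 2 it ran from -0.07 to 0.18 when 1 mouse was left out. The cause was not tested. No paired analysis was possible because all samples belong to 1 group. Signals near those of the Bacillus controls limit what can be said of the 5 low-signal genes and of Abcc8, Abcc9 and Cftr. They also limit what can be said of the low mice of Abca2, Abca7 and Abcc1.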
